A study of Mus musculus with 9 samples.

Results

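Among the circular RNAs (circRNAs) of the developing mouse cortex, 243 rose from proliferative progenitors (PP) to differentiative progenitors (DP) and then held a similar level in newborn neurons (N). They were chosen by their read counts. In each library, counts were scaled to CPM (counts divided by the library's sum and multiplied by 1000000) over all circRNAs except 27 high-count entries, and the CPM of 3 replicates were averaged per cell type. A circRNA was taken when its mean raw count over 9 libraries was at least 8, its ratio of DP to PP (DP/PP) was at least 1.5 and its ratio of N to DP (N/DP) was above 0.67 and below 1.5. Of all circRNAs with the minimum count, 13.5% met the limit of DP/PP and 53.8% those of N/DP, which the 243 meet by the rule. Of 5281 circRNAs in the count table, 4291 had the minimum count outside the high-count entries and 243 met the whole rule. Since the rule uses all 3 cell types, the levels and ratios below are descriptions of the chosen circRNAs and are not tests of the pattern.

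A circRNA forms when the spliceosome joins the 3′ end of an exon back to the 5′ end of the same or an upstream exon, which leaves a closed loop without free ends. Such loops resist exonucleases and are long lived in cells that no longer divide, and the brain is known for holding many of them. In the embryonic cortex, PP expand by division, DP have begun to produce neurons, and N leave the cell cycle, migrate and send out axons.

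All cells came from the lateral cortex of C57BL/6 embryos at embryonic day (E) 14.5. The pregnant mice were double heterozygous for a red reporter (RFP) driven by Btg2, which marks progenitors that switch to making neurons, and a green reporter (GFP) driven by Tubb3, which marks neurons. PP were sorted as cells with neither reporter, DP as cells with RFP and without GFP, and N as cells with GFP whether or not they held RFP, with 3 libraries of each. The sort defines the groups by 2 transgenes, so any cell without either reporter counts as PP. RNA was digested with RNase R, an exonuclease that degrades linear RNA. The counts nevertheless hold every read on the counted segments of a circRNA and not the reads across its backsplice junction alone.

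The high-count entries took most counts of every library, with 1.78% (N replicate 1) to 5.35% (PP replicate 2) of counts outside them. Outside the high-count entries, the shallowest library was PP replicate 3 with 83572 counts and the deepest N replicate 2 with 287983. A floor of 3 counts then corresponds to between 10.4 and 35.9 CPM, which covers counting error only. PP replicate 3 and N replicate 1 stood apart from their replicates, with a mean Spearman correlation across circRNAs of 0.708 and 0.812. The circRNAs of PP marker genes summed to 14610 to 16889 CPM in PP, 6602 to 8029 in DP and 1544 to 2913 in N. Those of N marker genes summed to 389 to 873 CPM in PP, highest in PP replicate 3, 1997 to 2687 in DP and 10286 to 12133 in N. DP marker genes had 4 circRNAs, from 3 of 10 genes (Mfng, Elavl4 and Tcf12). They summed to 697 to 1005 CPM in PP, 1924 to 1989 in DP and 505 to 656 in N. Each of these sets was highest in the cell type that it marks, with few circRNAs behind the DP set. The gene lists were chosen with earlier results of these data known, so this is not a test of the sort. Defining markers such as Sox2, Pax6, Eomes and Dcx have no circRNA in the table, and neither do the markers searched for microglia, endothelial cells and oligodendrocyte precursors. Of 11 interneuron markers, 1 gene (Erbb4) had circRNAs, at up to 59.8 CPM in PP, up to 7.27 in DP and between 95.7 and 201 in N.

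The loops are identified by the junction at which the end of their last exon meets the start of their first. The 30 bases on each side of that junction are given for 6 examples whose exons are all coding, with DP/PP above 3 and from genes of axon guidance, adhesion or the cytoskeleton. They are read on the transcribed strand from the NCBIM37 (mm9) genome. Lower case is the end of the last exon and capitals are the start of the first.
Kif21b (CiCo_mm9_circ_000078, chr1:138041176-138041889, plus strand, exons 2 to 3 of 37): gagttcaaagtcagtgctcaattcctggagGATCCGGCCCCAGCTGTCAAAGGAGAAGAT
Nrp1 (CiCo_mm9_circ_006157, chr8:130942613-130958275, plus strand, exons 3 to 6 of 17): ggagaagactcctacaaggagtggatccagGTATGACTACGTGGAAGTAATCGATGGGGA
Unc5d (CiCo_mm9_circ_006192, chr8:29793575-29834878, minus strand, exons 7 to 12 of 15): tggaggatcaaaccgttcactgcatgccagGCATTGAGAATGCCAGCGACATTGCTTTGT
Afap1 (CiCo_mm9_circ_005120, chr5:36287837-36293683, plus strand, exons 4 to 6 of 17): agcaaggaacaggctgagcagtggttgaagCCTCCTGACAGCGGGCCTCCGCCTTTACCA
Epha3 (CiCo_mm9_circ_002420, chr16:63652041-63653404, minus strand, exons 4 to 5 of 17): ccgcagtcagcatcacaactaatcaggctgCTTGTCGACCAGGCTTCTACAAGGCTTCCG
Mdga1 (CiCo_mm9_circ_002551, chr17:29986102-29994674, minus strand, exons 6 to 10 of 21): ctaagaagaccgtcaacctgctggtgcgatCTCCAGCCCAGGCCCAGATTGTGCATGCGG

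The circles of Srrm4 and Lrp8 are printed whole, from exons of 1 annotated transcript each. They are shown as examples in which 2 coding exons make up the circle and DP/PP was above 3, with the first exon in lower case and the second in capitals.
Srrm4 (CiCo_mm9_circ_004811, chr5:116917441-116917869, minus strand, exons 7 and 8 of 13, 93 and 157 bases): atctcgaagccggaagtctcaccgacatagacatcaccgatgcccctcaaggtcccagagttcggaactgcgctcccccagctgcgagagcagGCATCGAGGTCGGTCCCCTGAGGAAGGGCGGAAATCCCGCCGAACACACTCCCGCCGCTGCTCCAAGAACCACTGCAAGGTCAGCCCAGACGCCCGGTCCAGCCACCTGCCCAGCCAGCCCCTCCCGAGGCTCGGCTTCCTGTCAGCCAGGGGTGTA
Lrp8 (CiCo_mm9_circ_004234, chr4:107507232-107515949, plus strand, exons 3 and 4 of 19, 123 and 129 bases): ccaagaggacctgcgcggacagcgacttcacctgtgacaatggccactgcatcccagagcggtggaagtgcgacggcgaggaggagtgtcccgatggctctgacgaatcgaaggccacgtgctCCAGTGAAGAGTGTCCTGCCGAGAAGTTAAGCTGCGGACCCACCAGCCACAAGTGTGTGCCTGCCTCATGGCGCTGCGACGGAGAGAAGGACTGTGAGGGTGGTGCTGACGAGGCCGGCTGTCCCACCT
The Lrp8 circle of 252 bases is a multiple of 3 and the Srrm4 circle of 250 bases is not. Of the 190 chosen circRNAs whose exons are all coding, 77 (40.5%) had a length that is a multiple of 3, against 38.6% of the 3371 such circRNAs with the minimum count.

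The 243 circRNAs together took 4.47% ± 0.552 (SD, n = 3) of the counts outside the high-count entries in PP, 8.55% ± 0.541 in DP and 9.54% ± 0.546 in N. Their median level was 77.3 CPM in PP, 159 in DP and 162 in N, while that of all circRNAs with the minimum count was 124, 119 and 105 CPM. The step from PP to DP was modest for most of them. Median DP/PP was 1.81, 156 circRNAs (64.2%) were under 2, 21 were between 3 and 5, and 15 were at 5 or more. Median N/DP was 1.03, and it lay between 0.8 and 1.25 for 138 circRNAs. On the same scale the median N/DP of all circRNAs with the minimum count was 0.876, so a steady level depends on the scaling. In a bulk sample, fewer cells of a type and less RNA per cell cannot be told apart.

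**Figure D1:**
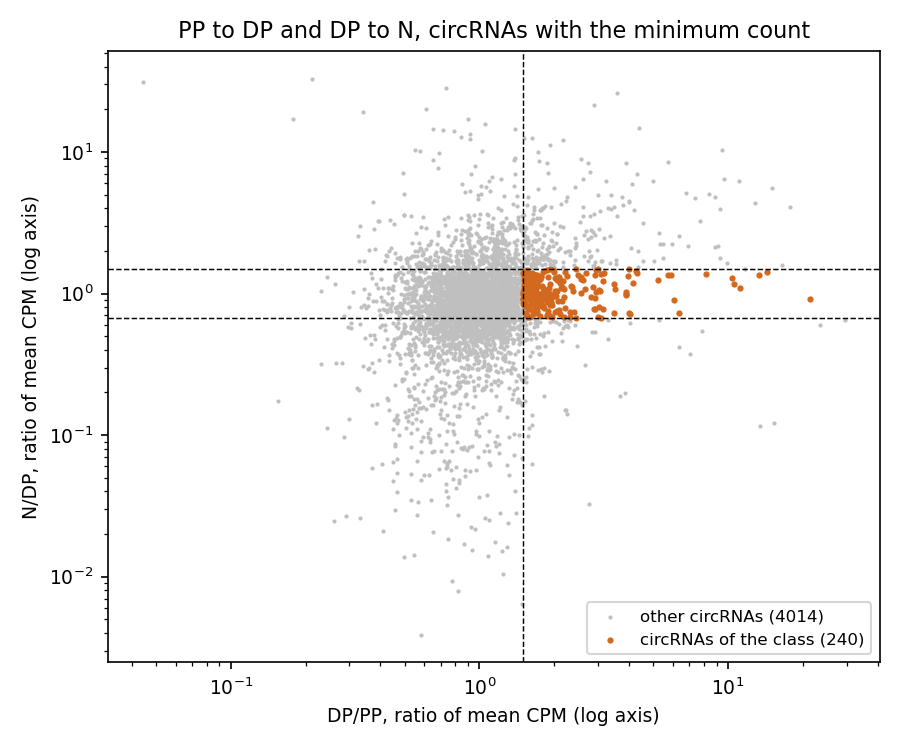
Ratio of mean CPM in DP to PP (x axis, log scale) and in N to DP (y axis, log scale) for circRNAs with the minimum count. Dashed lines mark the limits of the rule, and orange points are the 240 chosen circRNAs with reads in PP, most of them with a DP/PP between the limit of 1.5 and 2.

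The spread between replicates was wide next to these ratios. The median coefficient of variation of the 243 circRNAs was 38.5% in PP, 17.4% in DP and 30.5% in N. Every DP library was above every PP library for 156 circRNAs (64.2%), against 11.0% of all circRNAs with the minimum count, and the rule used the same values. Every N library was above every PP library for 122, against 15.7% of all. N was wholly above DP for 19 circRNAs (14.5% of all) and DP wholly above N for 14 (26.1% of all), so that DP and N libraries overlapped for the other 210. PP replicate 3, the shallowest library, was the lowest PP library for 60.1% of the 243 and for 55.7% of all circRNAs with the minimum count. Without it median DP/PP of the 243 was 1.69, none was under 1 and the lowest was 1.05.

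**Figure D2:**
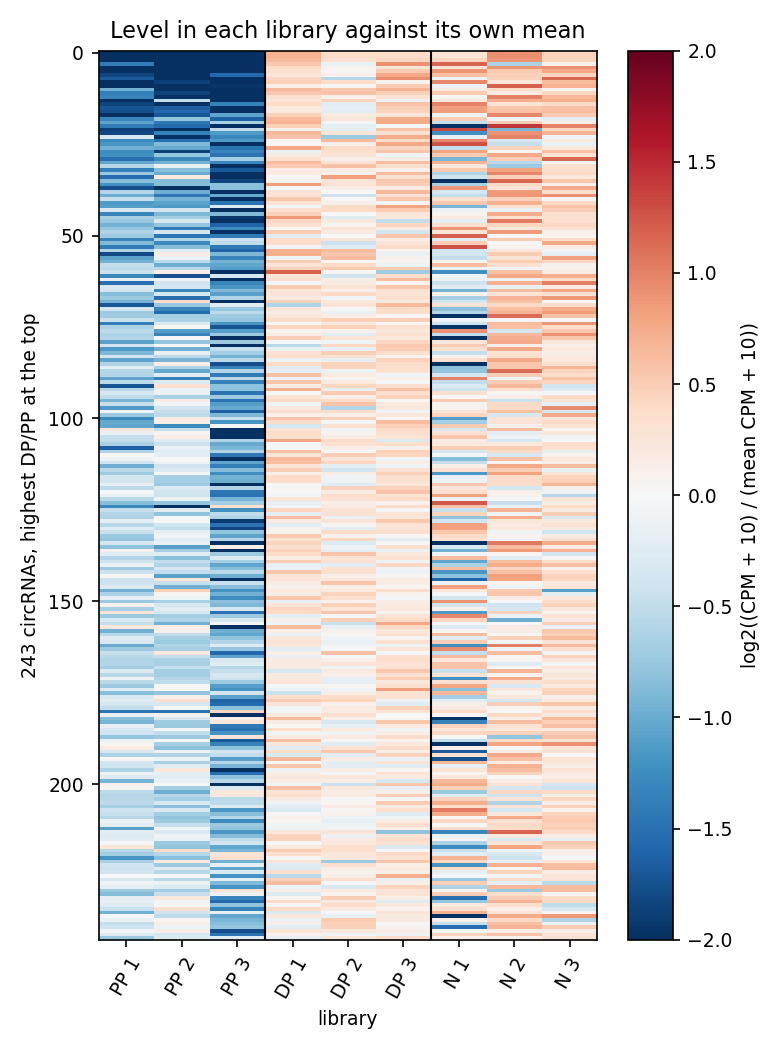
Level of each of the 243 circRNAs (1 line each, highest DP/PP at the top) in the 9 libraries, as log2 of CPM + 10 over the circRNA's own mean + 10. The median was -1.04 in PP replicate 3 and -0.58 and -0.52 in the other PP libraries, between 0.15 and 0.27 in DP, and 0.05 in N replicate 1 against 0.35 and 0.30 in the other N libraries.

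In an edgeR quasi-likelihood test over all circRNAs, 24 of the 242 chosen circRNAs that were tested passed an adjusted p of 0.05 as higher in DP than PP, against 1.48% of 4406 circRNAs, and 0 as lower, against 0.386%. Of these 24, 10 derive from 6 genes of axon guidance and adhesion (Plxna2, Epha3, Nrp1, Dcc, Unc5d and Sema3c). For N against DP, 0 of the 242 passed in either direction, against 9.03% of all as higher and 9.80% as lower, with 9 at an unadjusted p under 0.05 and 0 by DESeq2, but with 5 passing without PP replicate 3 and 1 without N replicate 1. Median log2 fold change of N against DP was 0.228 over the 242 and -0.0158 over all circRNAs tested. For N against PP, 111 passed as higher, against 13.7% of all. The rule chose on these contrasts, so nothing is read from the counts. Without 1 library, the 24 became between 11 (without PP replicate 2) and 39 (without N replicate 1), with 13 without PP replicate 1 and 12 without DP replicate 1 or DP replicate 3. The call of DP against PP was kept by 11 of the 24 whichever library was left out. They are the 3 circRNAs of Clvs1, both of Plxna2, and 1 each of Kif21b, Rasgef1b, Afap1, Nrp1, Unc5d and Dcc. The 3 of Clvs1 start at the same base, as do both of Plxna2, so the 11 are not all separate measurements.

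Axon guidance and adhesion genes held the largest group among the gene lists. Of 117 circRNAs of guidance and adhesion genes with the minimum count, 21 (17.9%) from 14 genes belonged to the class, where 5.66% of all circRNAs did. Across the 115 circRNAs of this list that were tested, 17 were higher in DP than PP and 0 lower, where 1.48% and 0.386% of all circRNAs tested were. Of these 17, 10 belong to the class, which was chosen on DP/PP of the same counts. In N against DP, 38 were higher and 9 lower, where 9.03% and 9.80% of all were. Median log2 fold change of DP against PP was 0.202 over the list, those of the class included, and -0.0564 over all circRNAs tested.

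Plxna2 encodes a plexin, the signalling receptor for semaphorins. CiCo_mm9_circ_000255 (chr1:196469880-196538512, plus strand, exons 2 to 4 of 32) measured 451, 515 and 263 CPM in PP, 1782, 1341 and 2116 in DP, and 2788, 2327 and 2392 in N. All DP libraries were above all PP libraries, and all N libraries above all DP libraries, with DP/PP of 4.26 and N/DP of 1.43. CiCo_mm9_circ_000254 shares the same first exon and had nearly the same ratios, 4.30 and 1.40. Both start at the same base and overlap over most of their length, so they are not separate measurements.

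Nrp1 encodes neuropilin 1, the co-receptor that binds secreted semaphorins. Its loop had 8.05, 30.3 and 35.9 CPM in PP, 188, 174 and 244 in DP, and 155, 396 and 278 in N. DP and N overlapped through N replicate 1 alone, and both lay above PP in every library. N/DP of 1.37 was 1.67 without N replicate 1, beyond the upper limit. The PP values rest on 1, 6 and 3 reads. Sema3c, a secreted semaphorin, gave the same picture at a lower level (CiCo_mm9_circ_005014), with mean 15.4 CPM in PP, 91.2 in DP and 123 in N. Its N/DP was 1.6 without N replicate 1.

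Dcc and Unc5d are receptors for netrins, which attract or repel growing axons. CiCo_mm9_circ_003077 of Dcc (chr18:72114408-72114728, minus strand, exon 2) had 32.2, 15.1 and 0 CPM in PP, 171, 81.5 and 247 in DP, and 117, 177 and 292 in N. The longer Unc5d loop had 16.1, 20.2 and 0 CPM in PP, 143, 130 and 105 in DP, and 204, 122 and 159 in N. For both, DP and N overlapped and stood clear of PP, with DP/PP of 10.5 and 10.4. Another circRNA of each gene belonged to the class, with DP/PP of 14.3 (CiCo_mm9_circ_003075) and 11.2 (CiCo_mm9_circ_006193) on 0 to 2 reads per PP library. The other 3 circRNAs of Dcc with the minimum count had DP/PP between 4.34 and 9.9 and N/DP between 1.64 and 2, beyond the upper limit. Dcc is itself on the list of N markers.

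Epha3 encodes a receptor tyrosine kinase for ephrins and gave 3 circRNAs from different exons. The loop of exons 4 to 5 had 32.2, 50.5 and 83.8 CPM in PP, 261, 207 and 222 in DP, and 175, 372 and 269 in N. That of exons 8 to 11 (CiCo_mm9_circ_002419) had 48.3, 70.7 and 83.8, then 313, 233 and 244, then 77.7, 375 and 319. Its N replicate 1 lay within the PP range, while all DP libraries were above PP. The loop of exon 3 alone (CiCo_mm9_circ_002421) had 121, 85.8 and 239 CPM in PP, 372, 233 and 396 in DP, and 291, 535 and 510 in N, so that PP and DP overlapped by 1 library. Ephb1, a related receptor, had a pair of circRNAs with DP/PP of 2.16 and 3.14.

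Lrp8 encodes a receptor for reelin, which directs the layering of cortical neurons. Its loop had 161, 172 and 132 CPM in PP, 525, 419 and 513 in DP, and 554, 229 and 351 in N. DP/PP was 3.14, and N overlapped with DP, with an N/DP of 0.778 that fell to 0.597 without N replicate 1. Per kilobase it was among the highest of the class, at 609 CPM per kb in PP, 1912 in DP and 1488 in N. The 2 other Lrp8 circRNAs had DP/PP of 2.26 and 2.31, with N/DP of 0.603 and 0.636. Mdga1, a cell adhesion molecule of the immunoglobulin family, had 177, 111 and 168 CPM in PP, 393, 545 and 647 in DP, and 758, 431 and 661 in N, with no overlap of PP with either.

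**Figure D3:**
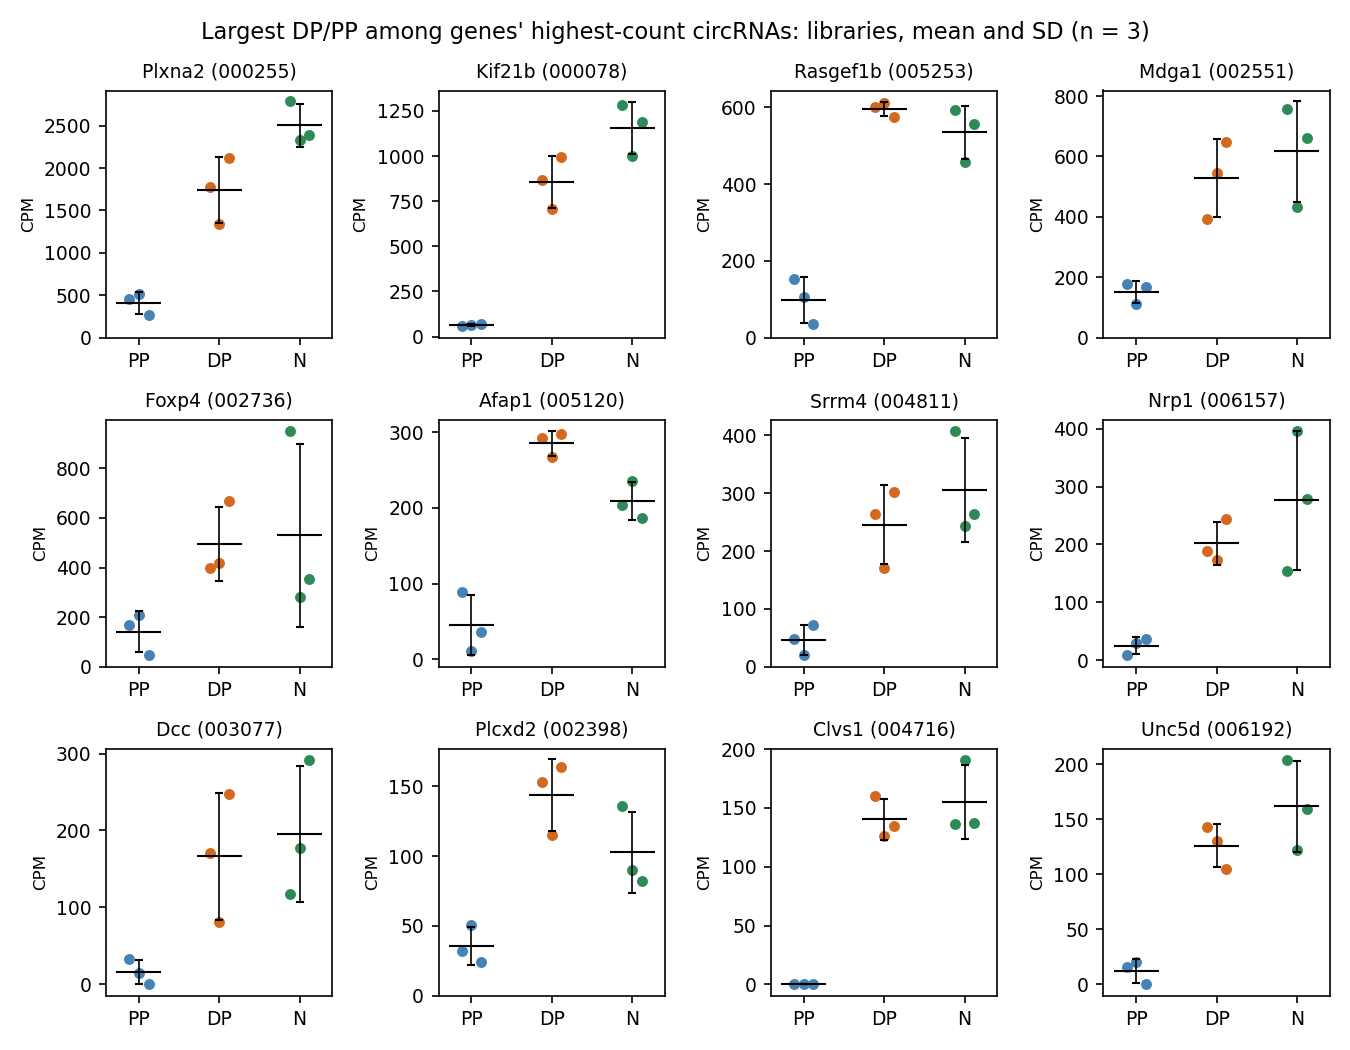
CPM of the 12 circRNAs with the largest DP/PP when each gene is represented by its chosen circRNA with the highest mean count, at a mean count of 20 or more. Points are libraries, and lines are the mean and SD of 3 replicates. For each of the 12, every DP library and every N library lay above every PP library. The 12 were chosen for DP/PP on these same values, and this separation held for 98 of the 243. Of all circRNAs with the minimum count, DP was wholly above PP for 11.0% and N wholly above PP for 15.7%.

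Ptprs, a receptor tyrosine phosphatase of axons, drew the most reads of the class. CiCo_mm9_circ_002766 (chr17:56586783-56597800, minus strand, exons 2 to 6 of 34) had 2776, 2847 and 2812 CPM in PP, 4040, 4661 and 5588 in DP, and 9043, 4295 and 5687 in N. N replicate 1 was far above the other N libraries, which overlapped with DP, and N/DP of 1.33 was 1.05 without it. Its counted length of 11019 bases covers its whole genomic span, whereas its exons hold 774 bases, so introns were counted too. The other Ptprs circRNA outside the class had a DP/PP of 0.745 and an N/DP of 0.680.

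Genes of microtubules and motors held 10 of 65 circRNAs with the minimum count in the class (15.4%), from 10 genes. Of the 65, 10 were higher in DP than PP and 0 lower, where 1.48% and 0.386% of all circRNAs tested were. Only 1 of these called circRNAs, that of Kif21b below, belonged to the class. In N against DP, 18 were higher and 4 lower, where 9.03% and 9.80% of all were. In N against PP, 33 were higher and 3 lower, where 13.7% and 14.4% of all were. Kif21b, a kinesin that also slows microtubule growth, had 56.3, 65.6 and 71.8 CPM in PP, 870, 708 and 996 in DP, and 1282, 1000 and 1189 in N. The groups did not overlap, with DP/PP of 13.3, N/DP of 1.35 and PP values that rest on 6 to 13 reads. Its counted length of 715 bases includes the intron between its exons, which hold 406 bases. The other Kif21b circRNA had a DP/PP of 16.5 and an N/DP of 1.6, just beyond the upper limit.

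Kif5c, a motor of axonal transport, had 241, 202 and 239 CPM in PP, 383, 337 and 338 in DP, and 359, 618 and 510 in N (CiCo_mm9_circ_003792). DP was above PP throughout and overlapped with N through N replicate 1. N/DP of 1.41 was 1.6 without that library. Clasp1, which stabilises microtubule plus ends, had 145, 222 and 108, then 351, 256 and 280, then 321, 510 and 465 CPM (CiCo_mm9_circ_000013), with the same order of groups. Its N/DP of 1.46 was 1.65 without N replicate 1. Camsap1, which binds microtubule minus ends, sat at the limit with a DP/PP of 1.5 (CiCo_mm9_circ_003676). It had 708, 661 and 299 CPM in PP against 901, 808 and 796 in DP and 1175, 1271 and 1034 in N, and without PP replicate 3 its DP/PP was 1.22. The counts of Dync1i2, a subunit of dynein, showed how far 1 library can decide (CiCo_mm9_circ_003852), with 18, 33 and 2 reads in PP and 3, 114 and 69 in N, and a DP/PP of 1.26 without PP replicate 3.

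Afap1, which cross-links actin filaments, had 88.5, 10.1 and 35.9 CPM in PP, 292, 267 and 298 in DP, and 204, 236 and 187 in N. All DP libraries were above all N libraries, and both above PP. Fscn1 encodes fascin, which bundles actin in filopodia, and had 925, 843 and 933 CPM in PP, 1535, 1345 and 1349 in DP, and 1884, 1625 and 1841 in N (CiCo_mm9_circ_004985, chr5:143731584-143732364, plus strand). Its 3 groups did not overlap, and per kilobase it stood at 1152, 1802 and 2281 CPM per kb. Its counted length of 782 bases covers its whole span, whereas its exons hold 447 bases.

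RNA-binding proteins gave 6 of 99 circRNAs (6.06%), close to the share of all. Srrm4, a splicing regulator that includes neuronal microexons, had 48.3, 20.2 and 71.8 CPM in PP, 264, 170 and 302 in DP, and 408, 243 and 264 in N. PP stood clear of both, with DP/PP of 5.25 on 4 to 6 reads per PP library. Elavl2, a neuronal RNA-binding protein of the Hu family, had 88.5, 116 and 120 CPM in PP, 397, 267 and 309 in DP, and 136, 295 and 232 in N (CiCo_mm9_circ_004711). N was above PP by little in replicate 1 and overlapped with DP, at an N/DP of 0.682 next to the lower limit.

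Ddx17, an RNA helicase, stood inside the limit of DP/PP through PP replicate 3. Ddx17 had 418, 469 and 120 CPM in PP, 525, 504 and 484 in DP, and 427, 476 and 474 in N (CiCo_mm9_circ_002142). Without that library its DP/PP fell from 1.5 to 1.14. Per kilobase the Ddx17 loop was second in DP among the 243, at 1423 CPM per kb in PP, 2137 in DP and 1945 in N.

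Transcription regulators of neurons held 11 of 101 circRNAs in the class (10.9%), from 7 genes. Nfix and Nfia belong to the nuclear factor I family, which acts in cortical progenitors and neurons. CiCo_mm9_circ_006342 of Nfix (chr8:87245542-87251866, minus strand, exons 3 to 8 of 12) had 1658, 1757 and 1544 CPM in PP, 2474, 2946 and 3046 in DP, and 5177, 2792 and 3541 in N. DP and N overlapped above PP. Its counted length equals its span, introns included, as for Ptprs. CiCo_mm9_circ_004727 of Nfia had 402, 444 and 132 CPM in PP, 675, 437 and 462 in DP, and 311, 576 and 538 in N, where all 3 groups overlapped and DP/PP without PP replicate 3 was 1.24. The other circRNAs of both genes fell outside, 3 of Nfix with DP/PP of 1.04 to 1.30 and 4 of Nfia with 1.26 to 1.40.

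Auts2, a nuclear and cytoskeletal regulator linked to autism, had 3 circRNAs in the class that start at the same exon. CiCo_mm9_circ_004902 had 1239, 828 and 515 CPM in PP, 1375, 1234 and 1581 in DP, and 1913, 1695 and 2101 in N. PP replicate 1 overlapped with DP, N lay above both, and DP/PP was 1.35 without PP replicate 3. Foxp4, a forkhead repressor, had 169, 207 and 47.9 CPM in PP, 400, 419 and 669 in DP, and 952, 281 and 355 in N (CiCo_mm9_circ_002736). Its mean N/DP of 1.07 combined 1 N library above all of DP with 2 below all of DP, and it was 0.642 without N replicate 1.

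Chromatin regulators held 16 of 233 circRNAs (6.87%), near the share of all. Tet3, which oxidises methylated cytosine, had 869, 914 and 622 CPM in PP, 1166, 1304 and 1581 in DP, and 2001, 1313 and 1786 in N (CiCo_mm9_circ_005536). DP was above PP and overlapped with N. Kdm1a, a histone demethylase, gave 5 of its 6 circRNAs, with DP/PP between 1.53 and 1.79 and N/DP between 0.871 and 0.992, and the last had a DP/PP of 1.49. CiCo_mm9_circ_004410 had 451, 384 and 491 CPM in PP, 790, 719 and 513 in DP, and 330, 747 and 684 in N, where N replicate 1 was under every PP library.

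Synapse and channel genes gave 5 of 74 circRNAs (6.76%), also near the share of all, among them Cadps, which primes vesicles for release (CiCo_mm9_circ_001779). It had 40.2, 101 and 47.9 CPM in PP, 129, 152 and 138 in DP, and 97.1, 222 and 278 in N, so that N overlapped with both. That overlap came from N replicate 1, and N/DP of 1.43 was 1.79 without that library. Ubiquitin ligases and deubiquitinases gave 4 of 113 (3.54%). Those of the cell cycle gave 4 of 98 (4.08%), all of Rb1, which restrains entry into S phase. The Rb1 circRNAs had DP/PP between 1.5 and 1.96, but 3 of them were between 1.28 and 1.46 without PP replicate 3. Genes of Notch, Wnt, Shh and growth factor signalling in progenitors gave 0 of 79. Of the 82 tested, 22 were lower and 4 higher in N than DP, where 9.80% and 9.03% of all were.

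Outside the lists, the rise from nothing was that of Clvs1, which encodes a lipid-binding protein of clathrin-coated vesicles in neurons. CiCo_mm9_circ_004716 (chr4:9208535-9277968, plus strand, exons 2 to 3 of 6) had 0 reads in all 3 PP libraries, then 160, 126 and 135 CPM in DP and 136, 191 and 137 in N. Against a floor of 3 counts per PP library, a mean of 25.1 CPM, DP was at least 5.59-fold higher. CiCo_mm9_circ_004714 and CiCo_mm9_circ_004715 end 4 bases apart and had identical counts in all 9 libraries, so that they are 1 measurement, with DP at least 4.97-fold higher. CiCo_mm9_circ_004716 starts at the same base and contains them, so it is not a separate measurement either. Igsf21, an adhesion molecule of inhibitory synapses, had 1 read in PP and a DP/PP of 21.4 (CiCo_mm9_circ_004444), a ratio that rests on that read.

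Rasgef1b, an exchange factor for Ras-like proteins, had 153, 106 and 35.9 CPM in PP, 602, 611 and 574 in DP, and 592, 458 and 556 in N (CiCo_mm9_circ_005253, chr5:99669842-99672265, minus strand, exons 2 to 4 of 14). DP and N overlapped closely and stood well above PP, with DP/PP of 6.06 and N/DP of 0.899. Its counted length of 2425 bases covers its whole span, whereas its exons hold 444 bases, so introns were counted too. Plcxd2, of the phospholipase C X domain family, had 32.2, 50.5 and 23.9, then 153, 115 and 164, then 136, 90.3 and 82.0 CPM (CiCo_mm9_circ_002398). It overlapped between DP and N through N replicate 1, and N/DP of 0.714 was 0.599 without that library.

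Some circRNAs with high counts peaked in DP, with an N/DP near the lower limit, such as 0.713 for Acly and 0.709 for Trim2. Acly makes cytosolic acetyl-CoA, the substrate of lipid synthesis and histone acetylation. CiCo_mm9_circ_000737 had 1569, 1373 and 1244 CPM in PP, 2812, 2990 and 3028 in DP, and 2059, 2101 and 2133 in N. Its groups did not overlap, so that its N level was between the others. A further Acly circRNA had the same course with an N/DP of 0.654 and so fell outside. Trim2, a ubiquitin ligase of axons, had 1167, 1232 and 945 CPM in PP, 1893, 1519 and 1749 in DP, and 1399, 1076 and 1185 in N (CiCo_mm9_circ_004123). Here N overlapped with PP, not with DP, and N/DP was 0.657 without N replicate 1.

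Map4k4, a kinase that regulates cell migration, had the N/DP nearest to 1 among the 12 named for the highest counts. It had 1279, 1161 and 1484 CPM in PP, 2137, 2016 and 2327 in DP, and 2292, 1972 and 2219 in N (CiCo_mm9_circ_000297), with N/DP of 1. Trp53bp1, a DNA repair scaffold, had 949, 974 and 826, then 1677, 1223 and 1621, then 1719, 1715 and 1804 CPM (CiCo_mm9_circ_003402), with no overlap between groups. Hnrnph3, a splicing factor, had 933, 878 and 1185 CPM in PP, 1573, 1690 and 1709 in DP, and 2079, 1177 and 1376 in N (CiCo_mm9_circ_000619), and its N replicate 2 fell within the PP range.

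The 242 circRNAs with a parental gene came from 180 genes, 178 of them protein coding. One circRNA of the class was found for 138 genes, 2 for 29 and at least 3 for 13. Of the 42 genes with several, 21 had circRNAs that share the start of the first exon and 14 that share the end of the last. As the 243 circRNAs cover 195 separate loci, their counts are partly the same reads. Gdpd1, a lysophospholipase, gave all 5 of its circRNAs with the minimum count, with DP/PP of 2.07 to 2.19 and N/DP of 1.08 to 1.30. Zswim5, a zinc finger protein, likewise gave all 5, with DP/PP of 2.37 to 3.18 and N/DP of 1.11 to 1.39. The 3 of Pik3r3, a regulatory subunit of PI3 kinase, had DP/PP of 2.95 to 3.04. The 3 circRNAs of Kalrn, a guanine nucleotide exchange factor in neurites, came from separate exons and ranged from 1.64 to 2.65.

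Other circRNAs of the same genes leaned the same way, mostly below the limit of DP/PP. The 135 circRNAs from 69 of these genes that overlap no circRNA of the class had a median DP/PP of 1.14, and 90 (66.7%) were above 1. For the 3838 circRNAs of all other genes the median was 0.957, with 44.5% above 1. These 135 were left after those that met the rule were taken out. Of them, 13 (9.63%) reached a DP/PP of 1.5, near the 7.97% among circRNAs of all other genes. The 56 that overlap one of the class had a median of 1.38, on partly shared reads. For 95 of the 180 genes no other circRNA had the minimum count.

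**Figure D4:**
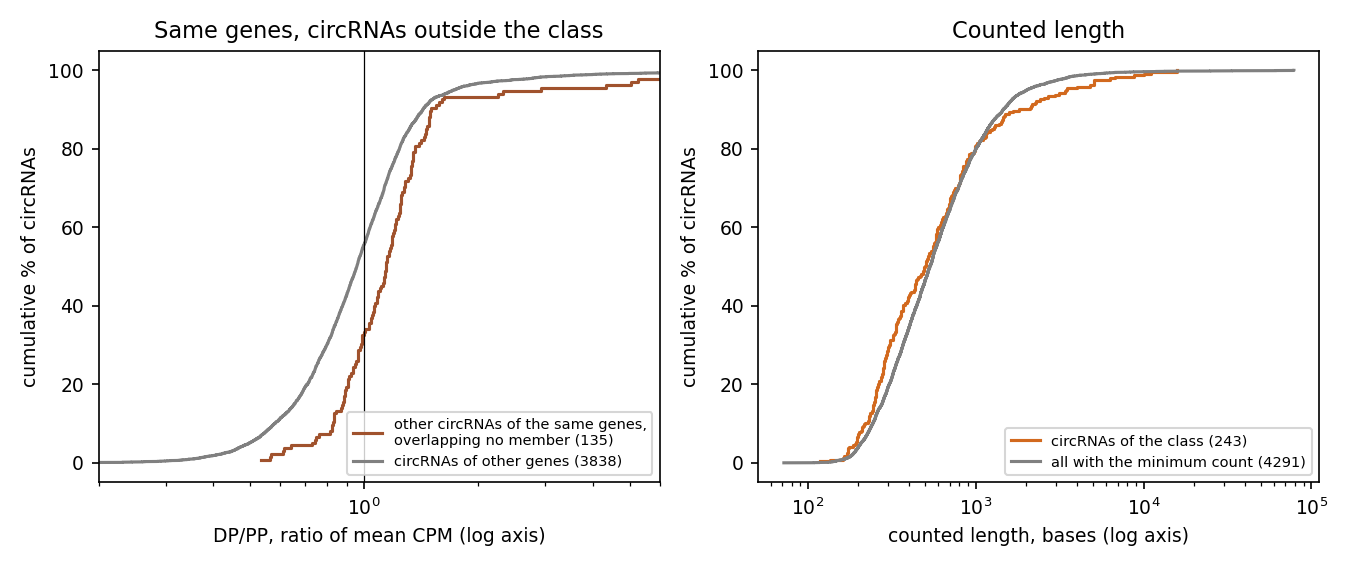
Left, cumulative percent of DP/PP (ratio of mean CPM, log axis) for the 135 other circRNAs of the same genes and the 3838 of other genes, with medians of 1.14 and 0.957. Right, cumulative percent of counted length (bases, log axis) for the 243 circRNAs and the 4291 with the minimum count, with medians of 500 and 533.

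In structure the class was much like the rest. Exon ends of 1 transcript matched 238 of the 243, and all 238 were preceded by AG and followed by GT, the usual splice sites. Their median number of exons was 3, as for all, and 28.2% began at exon 2 against 28.7%. Both ends of the length range were somewhat fuller, with 15.6% under 250 bases against 10.9% of all and 9.88% at 2000 bases or more against 5.1%. Flanking introns were longer at the median, 8476 bases upstream and 6721 downstream, against 6985 and 5120. Counted length equalled the exons for 202 circRNAs. The 36 others with exon ends had a median mean raw count of 141 against 26.2, and a median N/DP of 1.21 against 1.02. Examples with more counted than exon bases are Acly (8794 against 1259), Map4k4 (3470 against 1053), Trim2 (5043 against 2321) and Auts2 (4766 against 943). Others are Kdm1a (CiCo_mm9_circ_004410, 1454 against 590) and Kif5c (732 against 379). The named Hnrnph3 circRNA was counted over its whole span. The paper detected no introns in the circRNAs it checked for them, and the origin of these reads was not tested.

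Motifs of splicing factors showed similar shares. TGCATG, bound by Rbfox proteins, occurred on the transcribed strand in the 250 bases before the first exon of 11.3% of the class and 9.74% of all, and after the last exon of 13.4% and 11.3%. ACTAAC, bound by Quaking, occurred in 3.36% and 3.93% before and in 1.68% and 3.06% after. Seed matches within the exons were counted for miR-9-5p, miR-7a-5p and miR-128-3p, 3 miRNAs of neural cells, whose RefSeq sequences follow with the seed (bases 2 to 8) in capitals.
mmu-miR-9-5p: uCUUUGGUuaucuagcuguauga
mmu-miR-7a-5p: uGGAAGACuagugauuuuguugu
mmu-miR-128-3p: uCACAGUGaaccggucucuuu
At least 1 match to the seed of miR-9-5p (ACCAAAG) was found in 8.4% of the class and 8.6% of all. For miR-7a-5p (GTCTTCC) these shares were 5.46% and 5.43%. For miR-128-3p (CACTGTG) they were 6.3% and 8.93%. No circRNA of the class held more than 2 matches to any of the 3. A match is a string of letters and not a site shown to be bound.

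The limits of the rule cut through a continuum. Nearest to the DP/PP limit, Camsap1 (CiCo_mm9_circ_003676) and Tnpo2 (CiCo_mm9_circ_006352) were inside and Ube4b and Chn1 outside, all at 1.5 when rounded. At the upper N/DP limit, Phf21b was inside at 1.49 and Odz4 (CiCo_mm9_circ_005613) outside at 1.51. At the lower limit, Drg1 was inside at 0.671 and R3hcc1 outside at 0.663. The circRNA nearest the upper limit besides Phf21b has no annotated gene (CiCo_mm9_circ_001311, chr12:28020863-28021361, minus strand). It had 475, 424 and 144 CPM in PP, 1771, 1115 and 1272 in DP, and 272, 3420 and 2520 in N. Its N replicate 1 was lower than 2 PP libraries, and N/DP was 2.14 without that library.

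When the rule was applied to 8 libraries, between 221 and 404 circRNAs met it. Between 171 (without PP replicate 3) and 219 of the 243 were among them. A total of 68 circRNAs (28%) from 52 genes met it whichever library was left out. Among these were those of Kif21b, Clvs1, Unc5d, Rasgef1b, Srrm4, Afap1 and Mdga1, while the Plxna2, Nrp1, Dcc and Lrp8 circRNAs were not. Without PP replicate 3 and N replicate 1 together, 141 of the 243 (58.0%) were among the 340 that met it. With TMM-scaled library sizes, 46 of the 243 passed the upper limit of N/DP and 17 fell under the DP/PP limit, and 182 remained. By DESeq2 ratios, 50 passed the upper limit of N/DP, and in both settings 0 reached the lower limit. With total counts, 1 passed the upper limit and 33 reached the lower limit.

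**Figure D5:**
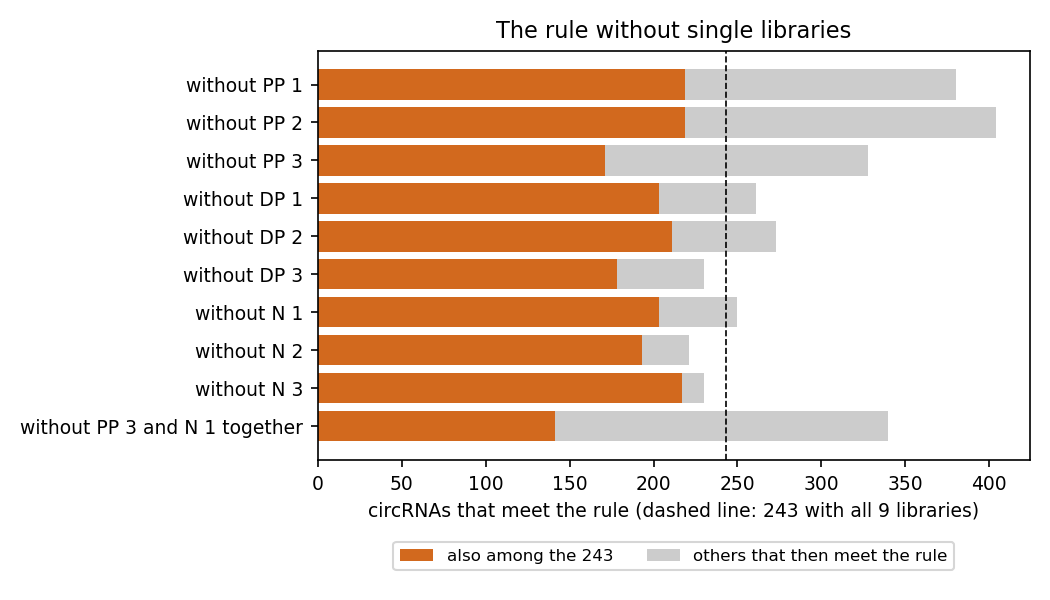
Number of circRNAs that met the rule without each library, and without PP replicate 3 and N replicate 1 together (bars). Orange counts those also among the 243 (dashed line), from 141 to 219, and grey counts others that then met it.

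Reads of N markers moved with the rise from PP to DP. Their sum was 4.31 times as high in DP as in PP, where the sum of PP markers was 0.449 times as high. From DP to N the sum of N markers rose a further 4.69 times. The median N/DP of the 243 circRNAs was 1.03, but the rule limits N/DP for each of them. It is also a median of single ratios and not a ratio of sums, and 2 of the 243, both of Dcc, are among the N markers. Nothing is therefore read from the contrast of these values. The share of N cells or RNA among the sorted DP was not tested.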

How the data were processed

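Total RNA of sorted PP, DP and N from the E14.5 mouse cortex was treated with RNase R and sequenced in 3 libraries per cell type. Per the paper's methods and the labels, the authors aligned reads with gsnap to mm9, predicted circRNAs with find_circ and deposited whole-number counts per circRNA from featureCounts (Subread 1.6.0), without normalization, with a counted length in bases. Starts in the deposited table count from 0 and were raised by 1. Exons were taken from GENCODE vM1 on mm9, which is not the authors' release.

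CPM were computed here over the counts outside 27 high-count entries, 1 within Cdk8 and 26 on chromosome 17. They are therefore not CPM of the whole library, since these entries held most of its counts. Differential expression was tested with edgeR 4.0.16 (TMM, quasi-likelihood test, Benjamini-Hochberg adjustment over all tested circRNAs, 9 libraries in 1 model), which was tested on simulated data. DESeq2 1.42.0, other scalings, filters, a replicate block and leaving out libraries were alternatives. The paper describes the 3 libraries per cell type as biological replicates. The labels do not say that libraries are separate animals, so p-values measure the spread between these libraries.

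The circRNAs and gene lists were chosen with earlier results of these data known. For naming, each gene was first represented by 1 circRNA, the chosen one with the highest count. Of these, the 12 with the highest count and the 12 with the largest DP/PP (mean count of at least 20) are named. Also named are up to 4 of them per list, genes with 3 or more, and the circRNAs nearest each limit. Sema3c, Ephb1, Dync1i2, Igsf21 and the further circRNAs of named genes were added after their values were seen. Some results are not reported here.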

Additional observations from a re-analysis of the deposited data

How the results depend on the processing

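The count of circRNAs that met the rule was 243 with all libraries, 159 with a mean raw count of at least 20, and between 221 and 404 without 1 library. It stayed within 1.5 times under TMM-scaled sizes (208), total counts (284), medians over replicates (323), no minimum (292), DESeq2 ratios (198) and without PP replicate 3 and N replicate 1 together (340). Calls of higher levels in DP than PP numbered 24 of the chosen circRNAs, 4 with total counts, 3 with at least 10 counts in every library (64 tested), and 104 without PP replicate 3 and N replicate 1 together, when 9.08% of all circRNAs were called. Without 1 library they numbered 11 (PP replicate 2) to 39 (N replicate 1). Calls between N and DP numbered 0, but 39 without PP replicate 3 and N replicate 1 together, and 0 to 5 without 1 library, with 5 without PP replicate 3 and 1 without N replicate 1. Calls of higher levels in N than PP numbered 111, 20 with total counts, 34 with at least 10 counts in every library, 52 when PP and N alone were fitted, and 76 to 124 without 1 library. In the fit with total counts, which include the high-count entries, the median log2 fold change of all circRNAs was -0.373 for N against PP. The cause of the lower counts was not tested. The log2 fold change of N against DP for CiCo_mm9_circ_002736 of Foxp4 was 0.33 and turned to -0.60 (edgeR adjusted p = 0.0322, range over alternatives 0.0322 to 0.959) without PP replicate 3 and N replicate 1 together. In the alternative fits, 0 of the chosen circRNAs had a log2 fold change of DP against PP under 0, as in the chosen fit. The rule chose on DP/PP of the same counts, so nothing is read from this.

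With the replicate number as a block, 17 of the chosen circRNAs were called higher in DP than PP, 0 different between N and DP, and 91 higher in N than PP. Libraries with the same number deviated together no more than others, with a mean correlation of -0.033 (range -0.238 to 0.281) against 0.024, so that the number was not taken as a pairing. The 3 counts that make a floor equal up to 35.9 CPM in PP replicate 3, where 20 of the 243 had no read, so that levels under this in PP and the ratios built on them are imprecise.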
